A study of Mus musculus with 5 samples.

Results

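The mouse genome encodes the membrane-embedded V0 sector of the vacuolar ATPase in a small family of genes, and 7 of them are described here in the dentate gyrus (DG): Atp6v0a1, Atp6v0a2, Atp6v0b, Atp6v0c, Atp6v0d1, Atp6v0e and Atp6v0e2. They were picked by symbol from the 23420 gene symbols with a value, after a first look at these data had shown that Atp6v0c was higher in a complex environment alone. The level of Atp6v0c in that group is therefore given as a description. All 7 genes passed the minimum for expression used here, a mean regularized log (rlog) value of at least 5, as did 13550 genes in all.

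The study asked how running and other forms of enrichment change RNA levels in the adult DG. Wild-type CD1 mice, an outbred strain, were housed for 4 weeks in LD (1 mouse per cage with a disk glued in place), RUN (1 mouse per cage with a running disk) or CE (a complex environment of 3 mice per cage, a locked disk and tunnels that were moved daily). Their age is 4 months in the sample labels and 3 months in the study's methods, which also state that the mice were male. RNA of the microdissected DG was pooled into 1 sequencing library per group, from 8 mice each for LD, CE and RUN, 4 mice for L-RUN (the runners with the lowest distances) and 4 mice for H-RUN (the runners with the highest). The RUN pool combined the 8 runners that also make up L-RUN (4) and H-RUN (4). Social housing and tunnels were given together in CE, so their effects cannot be told apart.

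The values are rlog values on the log2 scale, for which the 5 libraries were normalized together and each gene's values were shrunken towards its mean. A difference of at least 0.3 in size between 2 libraries, the cut-off of the study, is called past the cut-off here. Pools have no replicate library, so no test between groups is possible and none is given, and the sequencing depth is unknown. The available measure of error is the RUN library set against the value computed for L-RUN and H-RUN mixed in equal parts, whose residual gave a technical SD for a difference of 0.0365 over the expressed genes, from 0.0222 in the least to 0.0473 in the most variable decile of expression. It covers library preparation and sequencing but not differences between mice. Prox1, which marks dentate granule cells, had rlog values of 12.01 in LD, 11.86 in CE, 11.76 in the RUN library, 11.61 in L-RUN and 11.93 in H-RUN. LD was its highest library and L-RUN its lowest. All 10 granule cell markers listed were expressed, and 2 of the 10 were above LD in CE, with a median of -0.1192. C1ql2, a granule cell marker that went the other way, was above LD by 0.17 in CE and by 0.37, 0.37 and 0.40 in RUN, L-RUN and H-RUN. In bulk tissue, fewer cells of a type and less RNA per cell cannot be told apart. Differences from LD also ran with transcript length, as described below. Prox1 has 7913 bases and C1ql2 has 2000. Expressed genes over 6000 bases had medians against LD of -0.0589 in CE and -0.1131 in L-RUN. The part of length in these marker values was not tested.

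The vacuolar ATPase is a rotary proton pump. Its V1 sector lies in the cytosol and hydrolyzes ATP, and its V0 sector carries protons across the membrane through a ring of proteolipids (subunit c and the related c″, encoded by Atp6v0c and Atp6v0b) that turns against subunit a. Subunit d joins the ring to the central stalk, and the small subunit e is a membrane protein at the edge of V0. In neurons the pump acidifies lysosomes and endosomes, and it builds the proton gradient that drives neurotransmitters into synaptic vesicles. V0 and V1 come apart and join again as the demand for pumping changes.

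Atp6v0c, the gene of the main proteolipid, lies at chr17:24163865-24169678 on the minus strand (mm10, RefSeq). It has a pair of annotated pseudogenes: Atp6v0c-ps1 at chr7:4412323-4413443, on the plus strand, and Atp6v0c-ps2 at chr6:37805975-37807107, also on the plus strand, which RefSeq lists as transcribed. Of the 468 coding bases of Atp6v0c, 465 aligned to the GENCODE model of Atp6v0c-ps2 with 1 mismatch (99.8% identity), and the longest identical run was 354 bases. Atp6v0c-ps1 aligned over 463 bases with 11 mismatches (97.6% identity) and a longest identical run of 90 bases. The stretch from coding base 82 to 141 is shown because it holds the single base, at position 111 of the coding sequence, that distinguishes Atp6v0c from Atp6v0c-ps2 in this alignment. Sequences run 5′ to 3′ on the coding strand, the capital in Atp6v0c marks position 111, and capitals in the copies mark the bases that differ from Atp6v0c.
Atp6v0c: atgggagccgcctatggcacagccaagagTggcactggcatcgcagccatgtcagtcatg
Atp6v0c-ps1: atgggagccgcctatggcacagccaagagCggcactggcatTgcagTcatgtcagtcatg
Atp6v0c-ps2: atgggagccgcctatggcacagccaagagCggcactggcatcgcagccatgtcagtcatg
In this window Atp6v0c-ps1 differed from Atp6v0c at 3 bases and Atp6v0c-ps2 at 1 base. A short read from such an identical stretch can match more than 1 place in the genome, and how such reads were treated in the counting is not given in the sources used here.

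Atp6v0c was higher in CE than in each of the other libraries. Its rlog value was 8.58 in LD, 9.18 in CE, 8.63 in the RUN library, 8.65 in L-RUN and 8.65 in H-RUN. The other 4 libraries lay close together, and CE stood apart from them. The CE value was 0.60 above LD, 0.55 above RUN, 0.53 above L-RUN and 0.52 above H-RUN. The difference from LD equals 1.52-fold on the linear scale of the shrunken values and was 12.67 technical SDs. The differences of RUN, L-RUN and H-RUN from LD were 0.05, 0.07 and 0.08. Atp6v0c-ps2 had an rlog value of 0.43 in each of the 5 libraries, far under the minimum for expression, and its CE value was 0.0008 above LD. Reads it shares with Atp6v0c may have been left out or counted elsewhere, so the level of Atp6v0c-ps2 cannot be read from this value. The expression of Atp6v0c-ps1 was not analysed here.

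**Figure D1:**
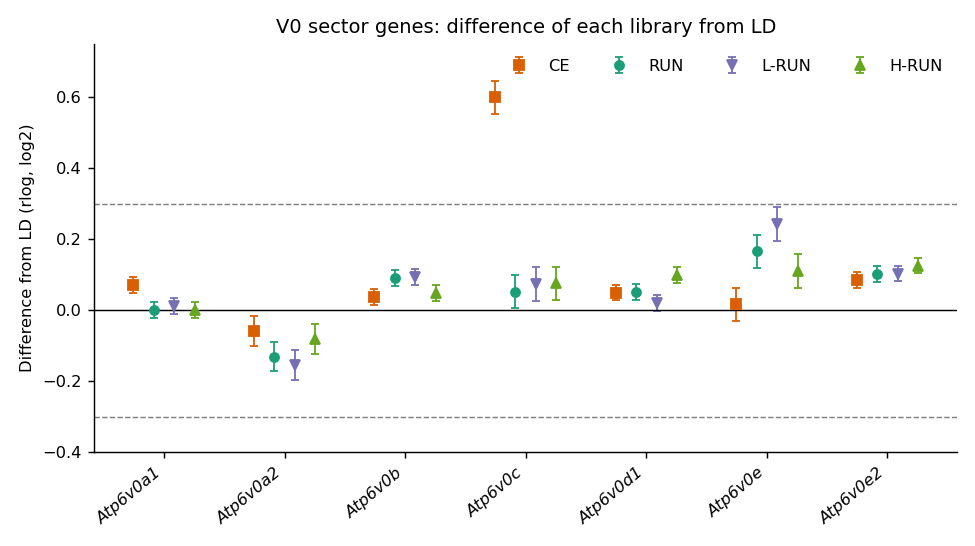
Difference of the CE, RUN, L-RUN and H-RUN libraries from LD (rlog, log2) for the 7 V0 genes, with 1 library per group and bars of 1 technical SD of a difference, which hold no differences between mice. Dashed lines mark the cut-off of 0.3. The CE point of Atp6v0c at 0.60 lies outside them, and the next highest point is that of Atp6v0e in L-RUN at 0.24.

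Subunit a forms the half-channels through which protons reach and leave the ring, and its isoforms steer the pump to different membranes. Atp6v0a1 (chr11:101009422-101063719, plus strand), the isoform prominent in neurons and synaptic vesicles, had rlog values of 14.00 in LD, 14.07 in CE, 14.00 in the RUN library, 14.01 in L-RUN and 14.00 in H-RUN. It had the narrowest range of the 7 genes, 0.07, with CE as the highest library. The 0.07 by which CE lay above LD was 3.21 technical SDs. Atp6v0a2 (chr5:124629052-124724455, plus strand), known for its role in the Golgi and endosomes, had rlog values of 9.52 in LD, 9.46 in CE, 9.39 in the RUN library, 9.37 in L-RUN and 9.44 in H-RUN. LD was its highest library, and it was the only V0 gene of the 7 with all 4 other libraries under LD by more than 0.05. Its largest difference was -0.15 in L-RUN, or -3.71 technical SDs. The coding sequences of these isoforms were 64.6% identical over their aligned bases.

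Atp6v0b (chr4:117884330-117887333, minus strand), which encodes the c″ proteolipid of the same ring as Atp6v0c, did not share the CE value of Atp6v0c. Its rlog values were 12.17 in LD, 12.21 in CE, 12.26 in the RUN library, 12.26 in L-RUN and 12.22 in H-RUN. LD was lowest and the RUN and L-RUN libraries were highest, 0.09 above LD in both. Its transcript has 1000 bases, and differences from LD ran with length, as described below. CE lay 0.04 above LD and 0.05 below RUN. The coding sequences of Atp6v0b and Atp6v0c were 55.7% identical over their aligned bases. Atp6v0d1 (chr8:105524461-105566064, minus strand), the widely expressed subunit d, had rlog values of 12.38 in LD, 12.43 in CE, 12.43 in the RUN library, 12.40 in L-RUN and 12.48 in H-RUN. H-RUN was its highest library, 0.10 above LD (4.48 technical SDs) and 0.08 above L-RUN (3.51 technical SDs).

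Subunit e is encoded by Atp6v0e (chr17:26676396-26699647, plus strand) and Atp6v0e2 (chr6:48537569-48541801, plus strand), of which the second is the form best known from brain. Atp6v0e had rlog values of 8.79 in LD, 8.80 in CE, 8.95 in the RUN library, 9.03 in L-RUN and 8.90 in H-RUN. All 3 libraries of runners were higher than LD and CE, by 0.17, 0.24 and 0.11 over LD for RUN, L-RUN and H-RUN. The L-RUN difference was 5.13 technical SDs and stayed under the cut-off of 0.3. Atp6v0e2 had rlog values of 13.26 in LD, 13.34 in CE, 13.36 in the RUN library, 13.36 in L-RUN and 13.38 in H-RUN. LD was the lowest library, and the other 4 lay 0.08 to 0.13 above it. Their coding sequences, each of 246 bases, were 69.5% identical, and no 50-base stretch of either transcript was found in a transcript of another gene.

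Across the 7 genes, Atp6v0c alone was past the cut-off. In CE against LD, 1 of 7 genes was past it, where 0.598% of the 13550 expressed genes were (0.332% higher), and in CE against RUN 1 of 7 was, where 0.834% of expressed genes were. Both counts are Atp6v0c, whose CE value led to the choice of these genes, so nothing is read from them. In RUN, L-RUN and H-RUN against LD, 0 of 7 genes were past the cut-off, where 1.31%, 3.13% and 0.827% of expressed genes were. H-RUN against L-RUN likewise had 0 of 7, where the background was 1.54%. Atp6v0c belonged to 9 expressed genes (0.0664%) with a CE value at least 0.3 above every other library. Among these only Thbs1, by 0.60, had a larger distance to its next highest library than Atp6v0c at 0.52. That pattern led to the choice of the V0 genes, so nothing is read from this share or order either.

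The other 6 genes stayed under the cut-off in all 6 comparisons. The range over the 5 libraries had a median of 0.1259 among the 7 genes and 0.1243 among the expressed genes, and 3 of the 7 lay under the latter. The medians of the 7 genes against LD were 0.0499 in CE, 0.0528 in the RUN library, 0.0739 in L-RUN and 0.0756 in H-RUN, beside -0.0018, -0.0013, -0.0018 and -0.0035 over all expressed genes. These 4 comparisons share the LD library. Differences from LD also ran with transcript length, as described below. Expressed genes under 1500 bases had medians of 0.0405, 0.0713, 0.0875 and 0.0425 in the same order. The part of length in the medians of the 7 genes was not tested. The summed linear value of the 7 genes was 15.20 on the log2 scale in LD, 15.27 in CE, 15.25 in the RUN library, 15.25 in L-RUN and 15.26 in H-RUN. The CE sum was 0.0710 above LD, and 0.0645 above it without Atp6v0c, which makes up a small share of the summed value as counted. How reads shared with the pseudogenes of Atp6v0c were counted is not given. With a cut-off of 3 technical SDs in place of 0.3, the number of V0 genes past it was 3 in CE (Atp6v0a1, Atp6v0c and Atp6v0e2, with 23.7% of expressed genes past it), 4 in RUN and 4 in L-RUN (Atp6v0a2 lower and Atp6v0b, Atp6v0e and Atp6v0e2 higher in both, with 24.3% and 32.7%) and 2 in H-RUN (Atp6v0d1 and Atp6v0e2, with 18.8%), each against LD. It was 3 in CE against RUN (18% of expressed genes) and 1 in H-RUN against L-RUN (22.1%). In each of the 7 genes, the RUN value was within 0.022 of that of the mixture of L-RUN and H-RUN.

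Divided by transcript length, the V0 genes fell into a high and a low set. On the scale of mean rlog minus log2 of the length in kb, the level was 12.50 for Atp6v0e2 (1789 bases), 12.22 for Atp6v0b (1000 bases), 12.01 for Atp6v0a1 (4008 bases) and 11.72 for Atp6v0d1 (1629 bases). It was 9.17 for Atp6v0e (823 bases), 8.49 for Atp6v0c (1183 bases) and 7.02 for Atp6v0a2 (5345 bases). Of the ring genes, Atp6v0c was lower per length than Atp6v0b. Reads that also match the pseudogenes of Atp6v0c may be missing from its value, since their treatment is not given. As background, the ring is known to hold more copies of c than of c″. Every gap between neighbors in this order was wider than the range of either neighbor over the 5 libraries, the narrowest being 0.21 between Atp6v0b and Atp6v0a1. The order depends on the transcript chosen for Atp6v0e, whose longest coding transcript, of 2812 bases, would put it at 7.40, below Atp6v0c.

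Among the 7 genes, Atp6v0c had the largest share of sequence held by other genes. Of the 1134 words of 50 bases in its transcript, 368 (32.5%) were found in transcripts of other genes, 366 of them in Atp6v0c-ps2, against a median of 0.00% and a 90th percentile of 23.9% over 12765 expressed genes. The shared words lay in the coding part, where 87.8% were shared, and 0.0% were shared after the stop codon. With words of 100 bases the share was 24.5%. The GENCODE models of the pseudogenes cover the coding part only, while their RefSeq loci are longer, so sharing outside it was not assessed. Of the other members, Atp6v0a2 had 10.8% (with the gene 4930404A12Rik), Atp6v0b had 2.4% (with the gene Gm12841) and the remaining 4 had 0.0%. The part of the shared sequence in the level of Atp6v0c or in its CE value was not tested.

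**Figure D2:**
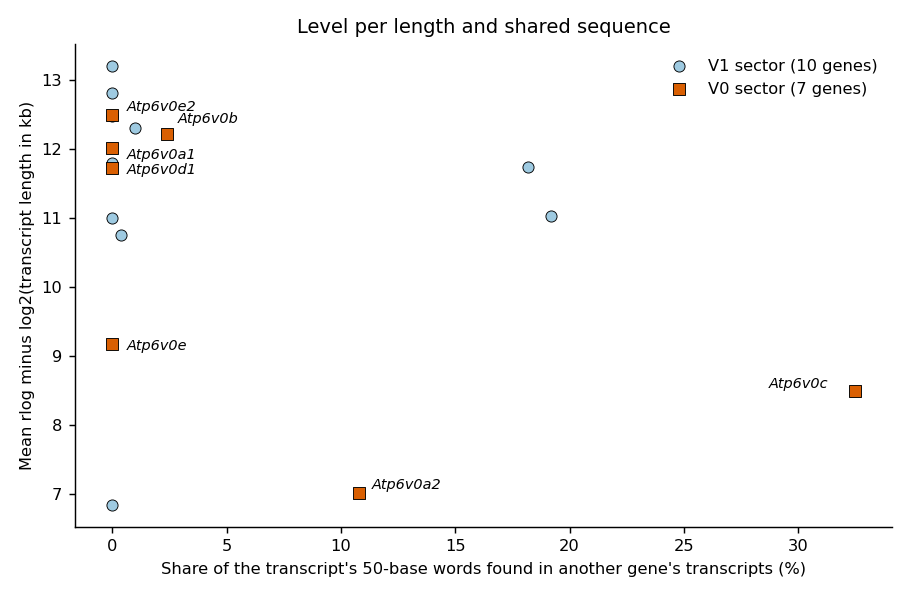
Level per length (mean rlog over 5 libraries minus log2 of the transcript length in kb) against the percentage of 50-base words of the transcript found in transcripts of other genes, for the 7 V0 genes and the 10 expressed V1 genes. Each point is 1 gene. Atp6v0c stands at the right with 32.5% shared and a level of 8.49, and 4 V0 genes lie at levels of 11.72 to 12.50.

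The genes whose profile was most like that of Atp6v0c, by Euclidean distance between the 5 values after each gene's mean was taken off, were Ttr (0.0983), Thbs1 (0.1164), Cpne7 (0.1659), Vgll3 (0.1938) and Hrh3 (0.2025), against a median of 0.5057 over the expressed genes. The other V0 genes lay at distances from 0.4340 for Atp6v0a1, at rank 1669, to 0.6070 for Atp6v0e. The profile of Atp6v0c is set mainly by its CE value, which led to the choice of the V0 genes. The distances largely restate that value, so nothing is read from them. Ttr, which encodes the thyroxine carrier transthyretin made in large amounts by the choroid plexus, had rlog values of 7.83 in LD, 8.45 in CE, 8.01 in the RUN library, 7.97 in L-RUN and 7.97 in H-RUN. Thbs1, the gene of the secreted matrix protein thrombospondin 1, had 6.24, 6.92, 6.26, 6.24 and 6.32 in the same order. For both genes CE was the highest library, and for Thbs1 the others lay close together. For Ttr, LD lay below the libraries of runners, by 0.18, 0.13 and 0.14 for RUN, L-RUN and H-RUN.

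Cpne7, a copine of the family of calcium-dependent phospholipid-binding proteins, had rlog values of 12.20 in LD, 12.68 in CE, 12.17 in the RUN library, 12.27 in L-RUN and 12.08 in H-RUN. Vgll3, a cofactor of TEAD transcription factors, had 8.32, 8.66, 8.29, 8.33 and 8.27 in the same order. Hrh3, the histamine H3 receptor, had 9.51, 9.90, 9.52, 9.64 and 9.52. CE was highest for all 3 genes. Because Ttr marks choroid plexus epithelium, the list of its 10 markers was read as a whole, and 3 of the 10 (Ttr, Kl and Prlr) were expressed. In CE against LD, Ttr was 0.62 higher, Kl was 0.03 higher and Prlr was within 0.01. The summed level of the list was 9.76 in LD, 9.96 in CE, 9.78 in the RUN library, 9.78 in L-RUN and 9.79 in H-RUN. The summed level of 10 leptomeningeal fibroblast markers was 12.62 in LD, 12.88 in CE, 13.53 in the RUN library, 14.09 in L-RUN and 12.51 in H-RUN. Without Ptgds, the highest of them, the sum was 11.61, 11.81, 11.89, 12.25 and 11.48 in the same order. In CE all 10 were above LD, with a median of 0.1187, and 4 were past the cut-off (Dcn by 0.37, Col1a1 by 0.39, Col1a2 by 0.45 and Ptgds by 0.30). The share over expressed genes was 0.598%. CE was the highest library for Dcn, and L-RUN for the other 9. In L-RUN 8 of the 10 were past the cut-off, with a median of 0.6506, where 3.13% of expressed genes were past it. Of 10 markers of CA1 and CA3 pyramidal cells, 4 were above LD in CE, with a median of -0.0662. Of the 10, 1 was past the cut-off, beside 0.598% of expressed genes. The marker past it was Fibcd1, 0.31 above LD, which also belongs to the 9 genes with CE at least 0.3 above every other library. Its rlog values were 10.35 in LD, 10.66 in CE, 9.89 in the RUN library, 9.90 in L-RUN and 9.83 in H-RUN. Nov, another marker of that list, was highest in CE too, 0.22 above LD. The lowest of the list in CE was Cpne4, 0.24 below LD. The summed level of the pyramidal list was 13.46 in LD, 13.42 in CE, 13.35 in the RUN library, 13.22 in L-RUN and 13.45 in H-RUN. The part of these cell types in the values of Atp6v0c was not tested. Markers outside the nearest profiles were named after their values were seen.

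**Figure D3:**
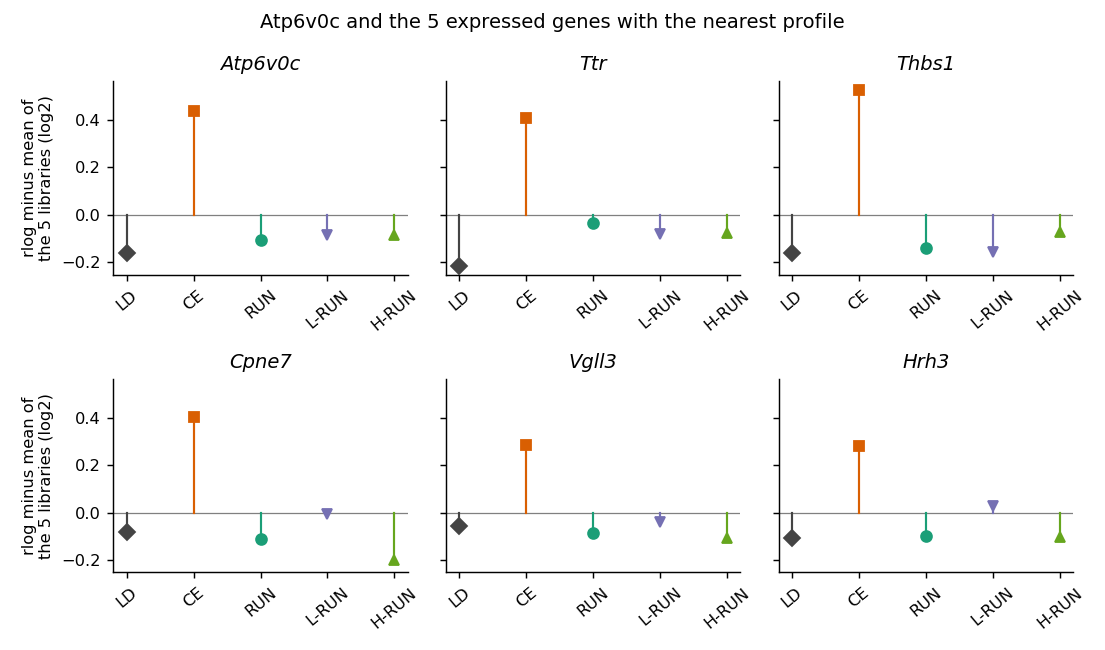
rlog values (log2) minus the mean of the 5 libraries, for Atp6v0c and the 5 expressed genes with the nearest profile. Each panel has 1 point per library, and the panels share 1 scale. The CE point is the highest of each panel. Before the mean was taken off, Atp6v0c was at 9.18 in CE against 8.58 to 8.65 in the other libraries.

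No RefSeq gene overlapped Atp6v0c, and its neighbors on chromosome 17, which lie on the same strand, stayed under the cut-off in CE. Amdhd2, which lies 132 bases from the end of Atp6v0c and encodes a deacetylase of amino sugar metabolism, had rlog values of 8.33 in LD, 8.42 in CE, 8.40 in the RUN library, 8.39 in L-RUN and 8.41 in H-RUN. LD was the lowest library and CE lay 0.09 above it. Tbc1d24, 5753 bases away on the other side, encodes a synaptic protein with a TLDc domain, and its CE value was 0.02 below LD. The next genes outwards, Pdpk1 and Ntn3, had differences of -0.23 and 0.12.

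The V1 sector, which must join V0 for the pump to work, had no gene past the cut-off. Of its 13 genes 10 were expressed (Atp6v1b1, Atp6v1e2 and Atp6v1g3 were not), and 0 of 10 were past 0.3 in any of the 6 comparisons, where 0.598% to 3.13% of expressed genes were, so the count does not set the V1 genes apart. Their medians against LD were 0.0041 in CE, 0.0531 in the RUN library, 0.050 in L-RUN and 0.0685 in H-RUN. Atp6v1a, the catalytic subunit A, had rlog values of 14.46 in LD, 14.26 in CE, 14.40 in the RUN library, 14.34 in L-RUN and 14.50 in H-RUN, so that CE was its lowest library, 0.20 below LD. Atp6v1g2, the form of subunit G best known from neurons, had 13.71, 13.95, 13.82, 13.75 and 13.87 in the same order, with CE as the highest library, 0.24 above LD. Atp6v1f, a subunit of the central stalk, had 11.09, 11.21, 11.29, 11.29 and 11.26, and LD was its lowest library.

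Of 4 other genes tied to the V0 sector, Atp6v0a4 and Atp6v0d2, isoforms known from kidney and osteoclasts, were not expressed (mean rlog values under 5). Tcirg1, which encodes subunit a3, had rlog values of 8.85 in LD, 8.78 in CE, 8.87 in the RUN library, 8.89 in L-RUN and 8.74 in H-RUN. Rnasek, which encodes a small membrane protein that associates with V0, had 11.27 in LD and between 11.46 and 11.47 in the other 4 libraries. LD was thus 0.19 to 0.20 below all others, though 97.9% of the 50-base words of Rnasek are shared with the gene model Gm21988. Among 10 accessory and assembly genes, 9 were expressed and 0 were past 0.3 in any comparison. The shares over expressed genes were 0.598% to 3.13%, so this count does not set them apart. Rogdi, a homolog of a yeast factor of V0 and V1 assembly, was highest in runners, with 0.09 above LD in CE and 0.22, 0.21 and 0.18 in RUN, L-RUN and H-RUN. Dmxl2, which encodes a rabconnectin of the same kind of complex, was below LD in all 4 libraries, by 0.13 in CE and by 0.19 in L-RUN. Its partner Wdr7 was 0.21 below LD in L-RUN and 0.01 above LD in H-RUN. The transcripts of Rnasek, Rogdi, Dmxl2 and Wdr7 have 611, 1355, 10614 and 7135 bases. The part of transcript length, described below, in their differences was not tested.

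**Figure D4:**
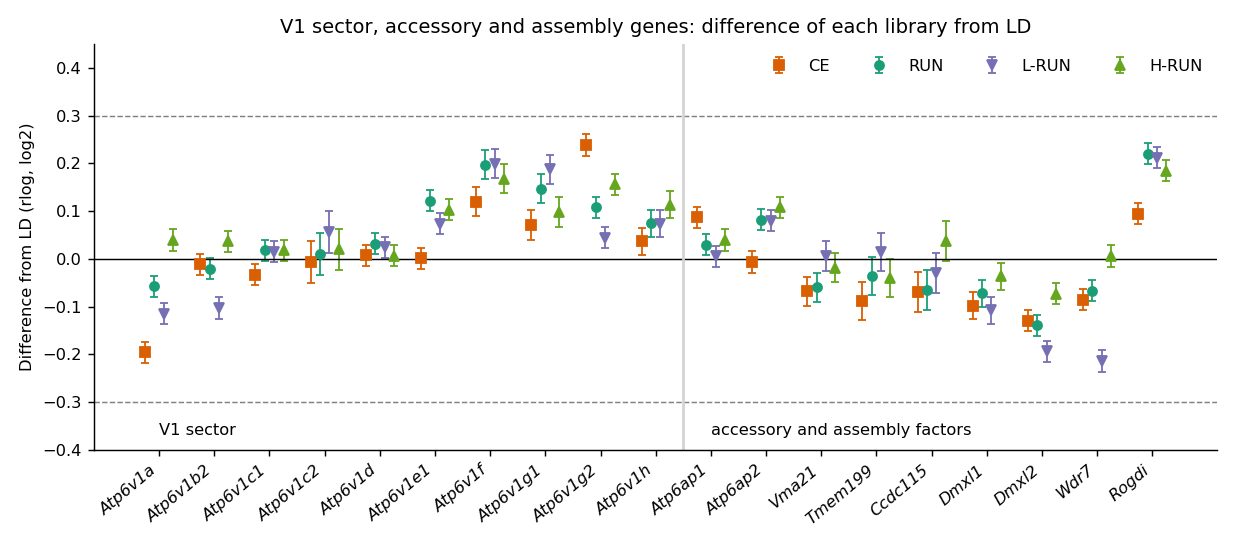
Difference of the CE, RUN, L-RUN and H-RUN libraries from LD (rlog, log2) for the 10 expressed V1 genes and the 9 expressed accessory and assembly genes, with bars of 1 technical SD of a difference. All points lie between the dashed lines at the cut-off of 0.3. The highest is Atp6v1g2 in CE at 0.24, and the lowest is Wdr7 in L-RUN at -0.21.

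Differences from LD ran with transcript length across all expressed genes. Over 12765 genes (94.2%) with a length, genes under 1500 bases had a median of 0.0405 in CE, 0.0713 in the RUN library, 0.0875 in L-RUN and 0.0425 in H-RUN. Genes over 6000 bases had medians of -0.0589, -0.0859, -0.1131 and -0.0562. Spearman's correlation of the difference with length was -0.325 in CE, -0.512 in the RUN library, -0.535 in L-RUN and -0.379 in H-RUN, as a description across genes that share the LD library. Atp6v0a2 is the longest V0 transcript and had the most negative differences from LD, and Atp6v0e is the shortest and had the highest differences in RUN and L-RUN. With the smoothed trend taken off, Atp6v0e kept 0.08 in RUN and 0.14 in L-RUN, and Atp6v0a2 kept -0.08 and -0.09. Atp6v0e2 kept 0.06 and 0.05. Atp6v0b, 0.09 above LD in both before, kept 0.02 in RUN and 0.0005 in L-RUN. With the longest transcript of Atp6v0e in place of the one used, its L-RUN difference was 0.24 after the trend was taken off.

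The CE difference of Atp6v0c was 0.56 after the trend was taken off. Its differences in RUN and L-RUN changed sign, to -0.01 in both. The sign also changed for Atp6v0e in CE (to -0.02), for Atp6v0b in CE (to -0.0014), for Atp6v0d1 in L-RUN (to -0.04) and for Atp6v0a1 in H-RUN (from -0.0002 to 0.02). Each of these was 0.08 or less in size before. The part of transcript length in the small differences of the V0 genes was not tested further.

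**Figure D5:**
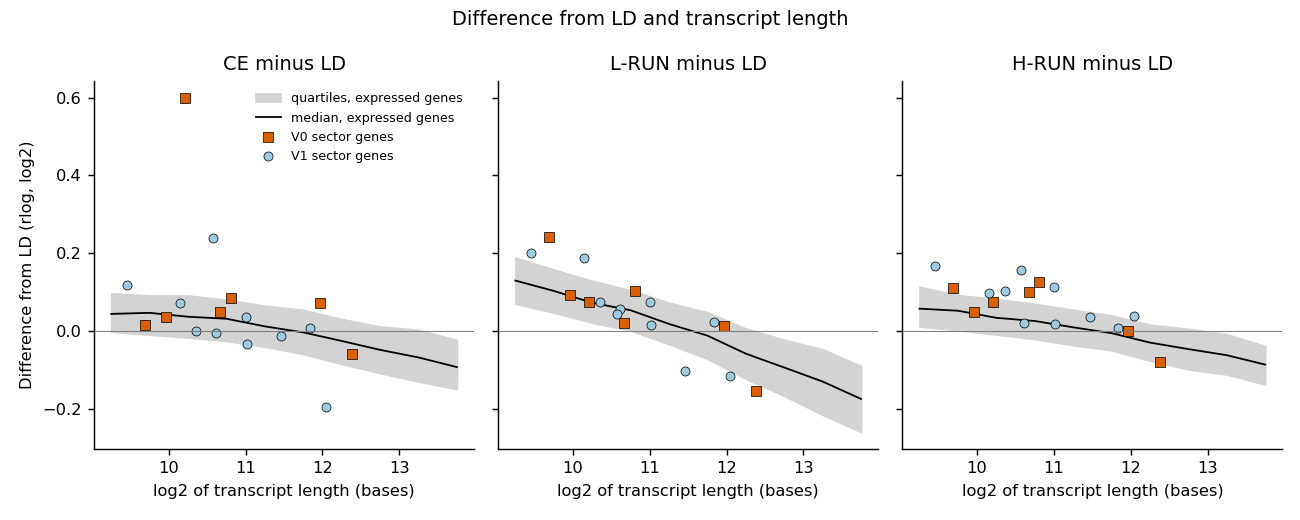
Difference from LD (rlog, log2) against log2 of transcript length in bases for CE, L-RUN and H-RUN, with the median (line) and quartiles (band) of the expressed genes in bins of length, and 1 point per V0 or V1 gene. The median falls from short to long transcripts in each panel, and Atp6v0c in CE, at 0.60, lies above the band.

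Genes of the vacuolar ATPase are known targets of the MiT/TFE factors, which bind an E-box within a longer motif, so the promoters were searched for CACGTG and for TCACGTGA, which contains it. Both read the same on either strand. RefSeq windows (GRCm38.p6) from 250 bases before to 50 after the gene start were at hand for 6 of the 7 genes, all but Atp6v0a2. CACGTG was found in 3 of the 6 (Atp6v0b, Atp6v0d1 and Atp6v0e), and in 8.09% of 27025 genes. TCACGTGA was found in 2 of the 6 (Atp6v0d1 and Atp6v0e), and in 1.12% of all genes. Of the 9 V1 genes with a window, 1 held CACGTG and 1 held TCACGTGA. The 30 bases around each match are shown 5′ to 3′ on the strand of the gene, with the E-box in capitals.
Atp6v0b, chr4:117887348-117887377: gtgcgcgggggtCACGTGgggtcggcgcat
Atp6v0b, chr4:117887330-117887359: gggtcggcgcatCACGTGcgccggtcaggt
Atp6v0d1, chr8:105566050-105566079: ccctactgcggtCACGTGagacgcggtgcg
Atp6v0e, chr17:26676387-26676416: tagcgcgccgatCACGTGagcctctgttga
The 3 windows of Atp6v0c held neither motif, and a match is a description of the letters only. None of the 3 genes with a match was past the cut-off in any comparison, where 0.598% to 3.13% of expressed genes were. Of the 4 MiT/TFE genes, Tfec was listed at 0, and Tfeb, Tfe3 and Mitf were expressed with 0 past 0.3, beside the same shares. Tfe3, which had the largest difference of them in CE, had rlog values of 10.02 in LD, 10.15 in CE, 10.13 in the RUN library, 10.07 in L-RUN and 10.13 in H-RUN.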

How the data were processed

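RNA of the DG was sequenced in 5 libraries, 1 per group. The authors mapped reads to mm10 with TopHat2 (2.0.10), used HTSeq for counting on RefSeq genes and normalized with DESeq2 (1.10.1). The deposited values are regularized log values on the log2 scale, and no count table was used here, so no count model was fitted. Read length and the treatment of multiply mapped reads and of strand are not given in the sources used here.

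Members and lists were chosen with earlier results of these data known. Differences between libraries were called at a size of at least 0.3, with no pseudocount. The technical SD came from the median absolute deviation of RUN against the mixture of L-RUN and H-RUN, by decile of expression, scaled for variances of 1.5 and 2 single libraries, which takes all libraries as equally noisy. Transcript lengths came from GENCODE M21 (12403 of 12765 linked to a curated RefSeq mRNA), and a lowess curve (fraction 0.3) gave the length trend. Shared sequence was counted as exact words of 50 or 100 bases. Named were all 7 members, genes of the vacuolar ATPase lists, the 5 nearest profiles, neighbors and copies of Atp6v0c, Prox1, and, of the lysosome and synaptic vesicle lists, genes past 0.3 against LD and the highest and lowest in CE. One gene that this rule names is not reported here. Alternatives were a cut-off of 0.4, a minimum mean rlog of 7 or none, centring, quantile normalization, another baseline, removal of the length trend and, added after the data were seen, a cut-off of 3 technical SDs. The scripts were tested on simulated data. Versions were biopython 1.88, matplotlib 3.10.9, statsmodels 0.14.6, scipy 1.17.1, pandas 2.3.3 and numpy 2.4.6, under python 3.11.15.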

Additional observations from a re-analysis of the deposited data

How the results depend on the processing

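No paired analysis was possible because each group had 1 library. With a cut-off of 3 technical SDs, chosen after seeing the data, V0 genes past it numbered 3 in CE (23.7% of expressed genes), 4 in the RUN library (24.3%), 4 in L-RUN (32.7%) and 2 in H-RUN (18.8%) against LD, 3 in CE against RUN (18%) and 1 in H-RUN against L-RUN (22.1%). With a cut-off of 0.4, in L-RUN the lysosome list went from 1 to 0 genes and the synaptic vesicle list from 2 to 1. The CE difference of Atp6v0c from LD lay between 0.5499 and 0.6016 under the 4 alternatives that can change a single value (centring, quantile normalization, length trend, baseline), since filters on low values cannot. Of 154 values of single genes under these, 59 moved by more than 1 technical SD, 33 of them with the length trend removed, and 0 values past the cut-off changed sign. The technical SD covers no differences between mice, depth is unknown, and rlog shrinkage could not be undone.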

Other observations

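Organelles that the vacuolar ATPase acidifies were read through lists of their other genes. Of 30 lysosomal genes, all expressed, 0 were past 0.3 in CE, RUN or H-RUN against LD and 1 was in L-RUN, where 0.598%, 1.31%, 0.827% and 3.13% of all expressed genes were. These counts are near the shares over all genes. The median of the list in CE was -0.0151. Gaa, the acid glucosidase that breaks down glycogen, was the highest in CE, with rlog values of 12.98 in LD, 13.25 in CE, 13.05 in the RUN library, 13.06 in L-RUN and 13.01 in H-RUN. CE was its highest library, 0.27 above LD. Scarb2, the lysosomal receptor for glucocerebrosidase, was that gene, 0.31 below LD in L-RUN.

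Of 20 synaptic vesicle genes, all expressed, 0 were past 0.3 in CE against LD, with a median of 0.0092, and 2 were past it in L-RUN, both lower. The shares over all expressed genes were 0.598% and 3.13%. The vesicle glycoprotein gene Sv2b had rlog values of 12.43 in LD, 12.47 in CE, 12.26 in the RUN library, 12.06 in L-RUN and 12.43 in H-RUN. Its relative Sv2c had 8.75, 8.64, 8.49, 8.28 and 8.71 in the same order. For both, L-RUN was the lowest library, and H-RUN was 0.37 and 0.44 above it. Their transcripts have 5524 and 9101 bases, and long transcripts ran lower in L-RUN. The part of transcript length in their differences was not tested. Syngr3 was the highest of the list in CE (0.14 above LD), and Clcn3, a chloride and proton exchanger, the lowest (-0.12). Of 5 genes with a TLDc domain, a family known to bind V1, 3 were found by symbol. Of these 0 were past 0.3 in any comparison, where 0.598% to 3.13% of expressed genes were. The lowest of these in CE was Ncoa7 at -0.16.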
